A study of Mus musculus with 6 samples.

Results

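CaM kinases are the enzymes through which a rise in neuronal calcium becomes protein phosphorylation, and 5 of their genes were followed here after a single seizure, in a hypothalamic centre of the stress response, the paraventricular nucleus (PVN). The 5 genes are the alpha, beta, delta and gamma subunits of CaM kinase II (Camk2a, Camk2b, Camk2d and Camk2g) and CaM kinase IV (Camk4). They were taken from 12393 genes that have a probe set of their own, by collecting every probe set whose only gene symbol is one of the 5. This gave 9 probe sets, 1 for Camk2a, 1 for Camk2b, 2 each for Camk2d and Camk2g and 3 for Camk4. The family was chosen by the log2 difference of Camk2a between seizure at 2 h and sham, which stood out in an earlier pass over the same arrays. That comparison is therefore given for these genes as a description, with no test.

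Calcium that enters an active neuron binds calmodulin, and calcium-bound calmodulin switches CaM kinase II on. Subunits in the ring-shaped holoenzyme then phosphorylate each other and stay active after calcium has dropped, which is why the enzyme is studied as a molecular memory at glutamate synapses. The alpha subunit is known as the form of excitatory neurons of cortex and hippocampus, the beta subunit binds actin filaments, and the gamma and delta subunits are made in many tissues. CaM kinase IV acts largely in the nucleus, is switched on by CaM kinase kinase and phosphorylates the transcription factor CREB.

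C57Bl/6 mice under isoflurane received 1 bilateral electroconvulsive seizure (ECS) through ear clips (25 mA for 1 s, 100 pulses per s of 0.5 ms) and were killed 2 h or 6 h later. Sham mice went through the same handling without current and were killed at 2 h. There was no sham group at 6 h, so time of day and time after handling cannot be told apart from the seizure in the 6 h comparison. Each of the 3 groups holds 2 one-colour Affymetrix arrays, each hybridised with laser-dissected PVN from a pool of 2 to 3 animals, and replicates 1 and 2 are separate runs of the experiment on different animals. Levels are log2 signals, meaning the log2 of the quantile-normalised signal plus 16, so that the lowest possible value is 4. Group values are the mean ± SD of 2 arrays (n = 2), and differences carry the standard error (SE) from limma, which fits 1 linear model per probe set and moderates its variance across all of them.

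The median deposited signal of an array ran from 25.2 to 40.8, and replicate 1 of the 6 h group resembled the others least, with a mean rank correlation of 0.846 against 0.869 to 0.890. Markers of the labelled tissue were unequal. Sim1, a transcription factor that PVN neurons need to form, had deposited signals of 268 to 349 over the 6 arrays, and Oxt (oxytocin) of 1495 to 3286. Otp, another transcription factor of PVN neurons, was dim and not tested, with 14.2 and 17.3 in sham, 3.0 and 2.1 at 2 h, and 10 and 5.8 at 6 h. Pou3f2, which acts in the same lineage, had signals of 8.7 to 44.7. Of 12662 tested probe sets limma called 0 (0%) in each of the 3 comparisons at an adjusted p under 0.05. At an unadjusted p under 0.05 there were 507 (4%) for 2 h against sham, 475 (3.75%) for 6 h against sham and 438 (3.46%) for 6 h against 2 h. With the run as a block limma called 4 probe sets at 2 h and 0 in the other comparisons.

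Camk2a, the alpha subunit, was the member with the widest differences between groups. It is measured by 1 probe set (1452453_a_at), of the type that matches several transcripts of the gene. The deposited signal was 352.7 and 639.6 in sham, against 29.7 and 99.4 at 2 h, and stood at 130.8 and 455.5 at 6 h. As log2 signals these were 8.88 and 9.11 in sham, 5.73 and 6.78 at 2 h, and 7.19 and 8.79 at 6 h. Both sham arrays lay above both 2 h arrays, with no overlap, and the 6 h arrays lay between them, replicate 1 near the 2 h arrays and replicate 2 near sham. In a tissue sample, fewer cells of a type and less RNA per cell cannot be told apart.

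The mean of Camk2a was 8.99 ± 0.165 in sham and 6.25 ± 0.745 at 2 h, a log2 difference of -2.74 ± 0.526 (SE), or 6.68-fold lower. Within replicate 1 it was 8.88-fold lower and within replicate 2 it was 5.03-fold lower. Among the 12662 tested probe sets only 7 had a larger decrease at 2 h, as Camk2a took place 8 from the most lowered. These values are what brought the family into view.

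**Figure D1:**
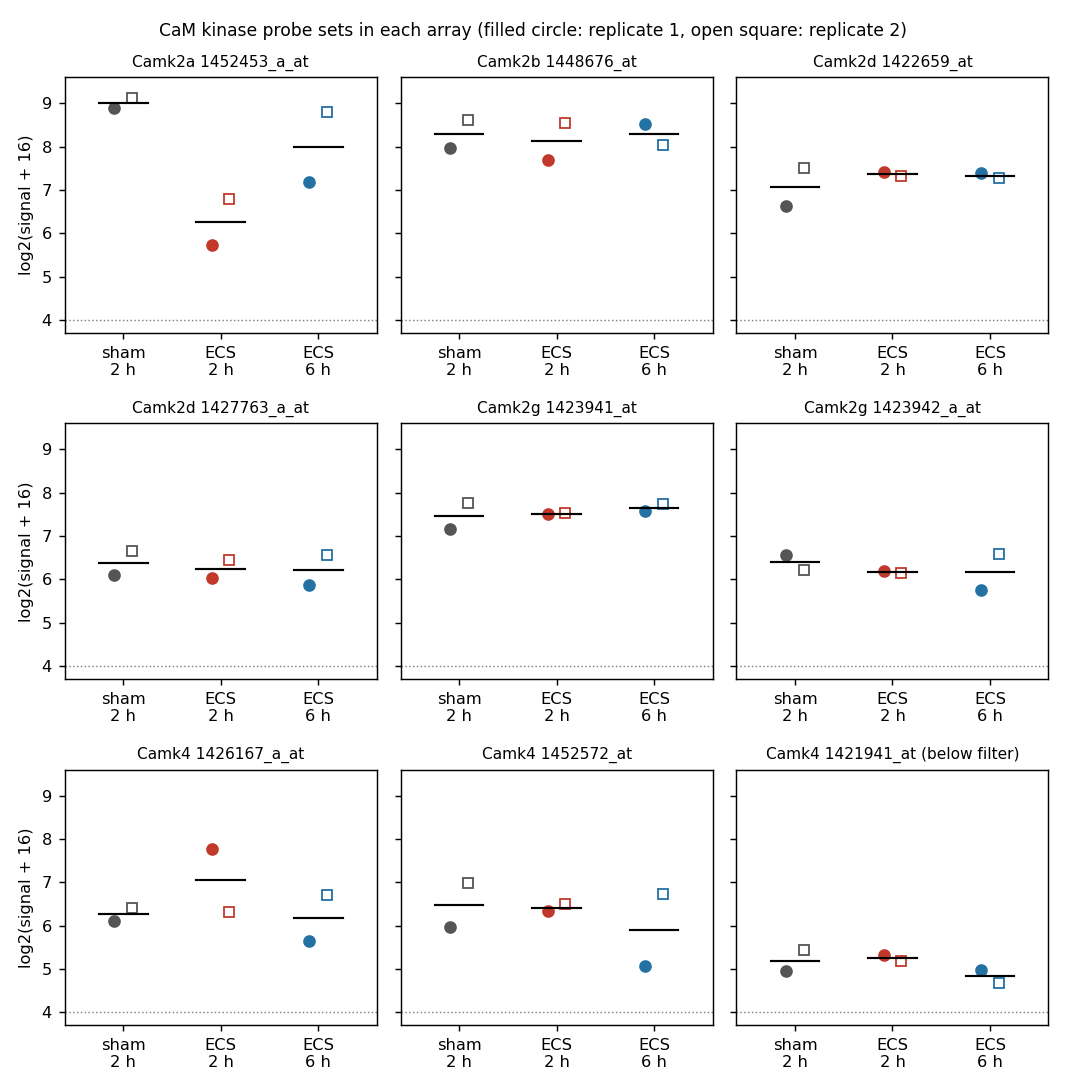
Log2(signal + 16) of the 9 CaM kinase probe sets (y axis) in the 3 groups (x axis), with each array as a point (filled circle, replicate 1; open square, replicate 2), the group mean as a bar and the lowest possible value of 4 as a dotted line. Camk2a stands at 8.88 and 9.11 in sham and at 5.73 and 6.78 at 2 h, whereas the arrays of Camk2b overlap between all groups.

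At 6 h Camk2a stood at 7.99 ± 1.13, a log2 difference from sham of -1.0 ± 0.526, which did not pass (limma adjusted p = 0.9998). The 95% interval ran from -2.16 to 0.16. The comparison uses the same sham arrays as the one at 2 h, so it is not independent of how the gene was chosen. The difference rested on replicate 1 of the 6 h group, being 3.22-fold lower within replicate 1 and 1.25-fold lower within replicate 2. Without 6 h replicate 1 the log2 difference was -0.20, and without 6 h replicate 2 it was -1.81. The 6 h arrays lay below both sham arrays after quantile normalization, but they overlapped with sham in the values as deposited and after median subtraction.

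Between the seizure groups, Camk2a was 3.34-fold higher at 6 h than at 2 h (log2 difference 1.74 ± 0.526), higher in both arrays, and the difference did not pass (limma adjusted p = 0.9989). It was 2.76-fold higher within replicate 1 and 4.03-fold within replicate 2. The 2 h arrays in this comparison are those by which the gene was chosen. The arrays of a group differed by 1.18-fold in sham, 2.08-fold at 2 h and 3.03-fold at 6 h. At 6 h only 3.59% of the tested probe sets had a larger SD.

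Camk2b, the actin-binding beta subunit that joins alpha in the same holoenzyme, did not share this pattern. Its log2 signals were 7.97 and 8.62 in sham, 7.70 and 8.55 at 2 h, and 8.52 and 8.04 at 6 h. The arrays of the 3 groups overlapped throughout. The log2 difference from sham was -0.17 ± 0.393 at 2 h and -0.01 ± 0.393 at 6 h, the latter with a 95% interval of -0.88 to 0.85 (limma adjusted p = 0.9998). At 6 h the runs went opposite ways, 0.55 within replicate 1 and -0.58 within replicate 2.

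Camk2d, the delta subunit, was measured by 2 probe sets that disagree in sign at both times. The brighter one (1422659_at) gave log2 signals of 6.63 and 7.51 in sham, 7.40 and 7.33 at 2 h, and 7.38 and 7.28 at 6 h. The sham arrays of this probe set lay on either side of the 4 seizure arrays, which differed among themselves by far less. Its log2 difference was 0.30 ± 0.385 at 2 h and 0.26 ± 0.385 at 6 h. The other (1427763_a_at) lay between 5.87 and 6.65 over all 6 arrays. It had differences of -0.14 ± 0.422 at 2 h and -0.17 ± 0.422 at 6 h. None of the Camk2d differences at 6 h passed (limma adjusted p = 0.9998 on both), and their 95% intervals were -0.59 to 1.11 and -1.10 to 0.77.

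Camk2g, the gamma subunit, also has 2 probe sets. The brighter one (1423941_at) stood at 7.17 and 7.77 in sham, 7.50 and 7.53 at 2 h, and 7.57 and 7.74 at 6 h. Its seizure arrays all fell inside the range of the sham arrays. The log2 difference was 0.04 ± 0.353 at 2 h and 0.18 ± 0.353 at 6 h (95% interval -0.60 to 0.96). On the dimmer one (1423942_a_at) the values were 6.56 and 6.23 in sham, 6.19 and 6.15 at 2 h, and 5.76 and 6.59 at 6 h. The 2 h arrays of that probe set lay just below both sham arrays, at a log2 difference of -0.22 ± 0.416, and the 6 h arrays overlapped with sham at -0.22 ± 0.416.

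Camk4, the nuclear kinase, was covered by 3 probe sets with unlike behaviour. The first (1426167_a_at) read 6.12 and 6.41 in sham, 7.77 and 6.32 at 2 h, and 5.65 and 6.71 at 6 h. One 2 h array, replicate 1, stood above all other arrays, while 2 h replicate 2 lay within the sham range. The log2 difference of 0.79 ± 0.532 at 2 h was made of 1.66 within replicate 1 and -0.08 within replicate 2. Only 2.98% of tested probe sets had a larger SD in the 2 h group. At 6 h the difference was -0.08 ± 0.532 (95% interval -1.26 to 1.09).

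The second Camk4 probe set (1452572_at) gave 5.98 and 6.98 in sham, 6.33 and 6.51 at 2 h, and 5.08 and 6.73 at 6 h. Its difference was -0.06 ± 0.559 at 2 h and -0.58 ± 0.559 at 6 h (limma adjusted p = 0.9998). Replicate 1 of the 6 h group was its lowest array. The third (1421941_at) was dim, with deposited signals of 10.8 to 35.7, reached the median of its array in 0 of 6 arrays and was not tested. Its log2 signals ran from 4.68 to 5.44, close to the lowest possible value. The high 2 h array of the first probe set has no counterpart in the other two.

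**Figure D2:**
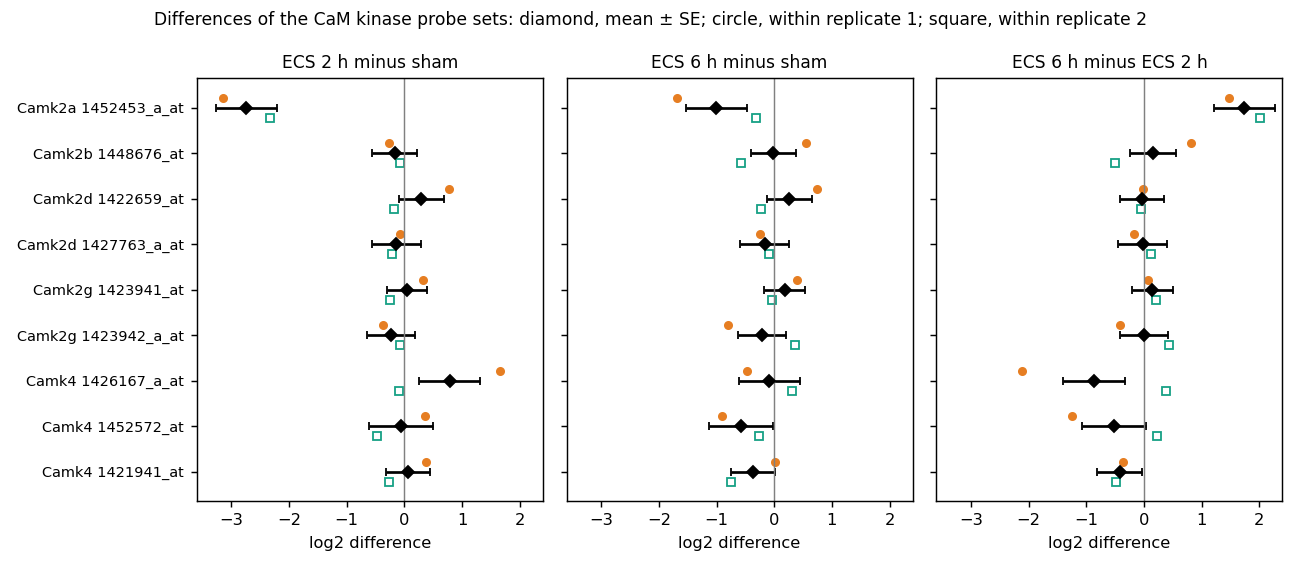
Log2 difference (x axis) of the 9 CaM kinase probe sets (y axis) for ECS 2 h minus sham, ECS 6 h minus sham and ECS 6 h minus ECS 2 h, with the mean ± limma SE (diamond and bar) and the difference within replicate 1 (circle) and within replicate 2 (square). Camk2a lies at -2.74, -1.0 and 1.74, with both runs on the same side of 0 in each comparison.

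Set side by side, the 8 probe sets of the members other than Camk2a had log2 differences between -0.22 and 0.79 at 2 h and between -0.58 and 0.26 at 6 h. Of all 9, 5 were lower and 4 higher at 2 h, and 7 were lower and 2 higher at 6 h. At 2 h the arrays of 2 of the 9 lay below sham without overlap, Camk2a and the dimmer Camk2g probe set, beside 16.4% of all tested probe sets, and 0 lay above it, beside 16.3%. A 2-fold lower level without overlap was seen in Camk2a alone, beside 1.9% of all tested, and a 2-fold higher level in 0 of 9, beside 1.58%. At 6 h 1 of 9 lay below sham without overlap, again Camk2a, beside 15.3%, and above sham there were 0, beside 14.8%. Camk2a was also the 1 probe set at least 2-fold lower without overlap, beside 1.96%, with 0 higher, beside 1.31%. Against 2 h, the 6 h arrays lay higher without overlap in 2 of 9, Camk2a and the brighter Camk2g probe set, beside 14.4%, and lower in 1, the dim Camk4 probe set, beside 15% of the tested ones. At least 2-fold without overlap, 1 was higher, Camk2a, beside 1.32%, and 0 were lower, beside 1.71%. The shares without a fold limit are near those of the array as a whole. The counts at 2-fold hold Camk2a alone, by which the family was chosen, so they are no result about the family.

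The members also differed between runs. In sham 8 of 9 probe sets were higher in replicate 2 than in replicate 1, where 48.9% of all tested probe sets were. At 2 h this held for 5 of 9 and at 6 h for 6 of 9. The SD between the 2 arrays of a group ranged from 0.0203 to 1.17 over the members and groups, and the median SD of all tested probe sets was 0.264 to 0.295.

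Genes that act around these kinases were looked up in 6 lists. The inhibitors Camk2n1 and Camk2n2 and the kinase Camkk1 were not analysed here. Of the listed upstream kinases, other CaM kinases and related proteins 9 were on the array and 7 tested. At 2 h 7 of the 9 were lower than in sham, with a median of -0.40 (-0.68 over the 7 tested), and at 6 h 8 of the 9 were lower, with a median of -0.41 (-0.53 over the 7). Over all 12393 genes 48.9% were lower at 2 h and 48.8% at 6 h, with a median of 0.01 at both times, which is the background for this and the following lists. Limma called 0 of the 7 at either time, and at an unadjusted p under 0.05 there was 1 lower at 2 h, and 1 lower and 1 higher at 6 h.

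Camkk2, the CaM kinase kinase that phosphorylates CaM kinase IV and CaM kinase I, was the lowest of this list at 2 h. Of its 3 probe sets only the brightest was tested. Its deposited signal was 437.8 and 681.4 in sham, 104.9 and 271.2 at 2 h, and 189.7 and 404.6 at 6 h. Sham arrays lay above all 4 seizure arrays, without overlap. On the log2 scale the difference was -1.53 ± 0.411 at 2 h, 2.89-fold lower (limma adjusted p = 0.754), and -1.04 ± 0.411 at 6 h, 2.05-fold lower (limma adjusted p = 0.9998). Neither passed. Both runs gave a lower value at 2 h, by 3.90-fold and 2.14-fold.

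Camk1 (CaM kinase I alpha), a cytoplasmic relative that is also switched on by CaM kinase kinase, lay on the other side. It stood at 6.67 ± 0.074 in sham, 7.07 ± 0.22 at 2 h and 7.52 ± 0.196 at 6 h, a log2 difference of 0.84 ± 0.351 at 6 h that did not pass (limma adjusted p = 0.9998). Another Camk1 probe set gave 0.38 at 6 h. Camk1d, another CaM kinase I, was at -0.68 ± 0.43 at 2 h and -0.81 ± 0.43 at 6 h. Camkv, a kinase-like protein of synaptic vesicles without kinase activity, was at -0.78 ± 0.417 and -0.53 ± 0.417.

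Among 4 neuronal proteins that bind calmodulin or act with it, all tested, Nrgn (neurogranin), which holds calmodulin at the synapse until calcium rises, had deposited signals of 70.4 and 154.9 in sham, 3.9 and 24.1 at 2 h, and 2.0 and 46.0 at 6 h. Its log2 difference was -2.08 ± 0.589 at 2 h (limma adjusted p = 0.850) and -1.91 ± 0.589 at 6 h, neither past the test, with all 4 seizure arrays below sham. Pcp4, a calmodulin-binding peptide, stayed within -0.10 ± 0.129 at 2 h and -0.15 ± 0.129 at 6 h. Gap43, the growth-cone protein of the same calmodulin-binding family as Nrgn, was at 0.21 ± 0.197 and -0.12 ± 0.197. Camta2, a calmodulin-binding transcription activator, was at -0.34 ± 0.484 and -0.57 ± 0.484. In all, 3 of the 4 were lower at 2 h, with a median of -0.22, and 4 of 4 at 6 h, with a median of -0.36. Limma called 0 of them, with 1 lower at an unadjusted p under 0.05 at each time.

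Phosphatases that oppose the kinases were a further list. Of 13 genes on the array 9 were lower and 4 higher at 2 h, with a median of -0.18, and 6 were lower and 7 higher at 6 h, with a median of 0.01 (-0.04 over the 12 tested). Of the 12 tested limma called 0, and 0 had an unadjusted p under 0.05 at either time. Ppp3r1, the regulatory subunit of the calcium-dependent phosphatase calcineurin, was at -0.70 ± 0.424 at 2 h on the brightest of its probe sets, with 0.20 on another, and its catalytic subunit Ppp3ca at -0.30 ± 0.289 on the brightest of 3 probe sets, with -0.94 and -0.63 on the others. Rcan1, an inhibitor of calcineurin, was at -0.28 ± 0.374. Ppp1r1a, an inhibitor of protein phosphatase 1, was at 0.42 ± 0.363 at 2 h and 0.78 ± 0.363 at 6 h.

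Of the synaptic substrates and anchors of CaM kinase II 17 were on the array. At 2 h 11 were lower, with a median of -0.28 (-0.44 over the 14 tested), beside 48.9% of all genes. At 6 h 14 were lower, with a median of -0.37 (-0.46 over the 14), beside 48.8%. Limma called 0 of the 14 tested. At an unadjusted p under 0.05 there were 2 lower at 2 h, beside 4% of all probe sets in either direction. There were 3 lower at 6 h, beside 3.75%. Of these 3, Itpka reached its array's median only in the sham arrays. Its deposited signals were 31.3 and 46.3 in sham, 20.3 and 5.8 at 2 h, and 0.6 and 13.4 at 6 h. For Itpka the filter thus favoured a lower value, and the 6 h count is given as a description. Kalrn (kalirin), the exchange factor of dendritic spines that CaM kinase II phosphorylates, had the largest difference, -3.07 ± 0.388 at 2 h and -1.58 ± 0.388 at 6 h, on the brighter of 2 tested probe sets. The other gave 0.37 and -0.12. Ryr2, a calcium release channel, was at -1.20 ± 0.413 at 2 h, Homer1, a scaffold of glutamate receptors, at -1.26 ± 0.457 at 6 h, and Itpka, which phosphorylates inositol trisphosphate and binds actin in spines, at -1.30 ± 0.546 at 6 h.

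The nuclear arm of CaM kinase IV, its transcription partners and CREB targets, had 13 genes on the array. At 2 h 10 were higher, with a median of 0.35 (0.38 over the 12 tested). At 6 h 9 were higher, with a median of 0.41 (0.22 over the 12 tested, 0.23 within replicate 1 and -0.07 within replicate 2). Limma called 0 of the 12 tested, with 1 higher and 1 lower at an unadjusted p under 0.05 at 2 h and 1 lower at 6 h. Fos, an immediate early gene that CREB can switch on, was at 2.00 ± 0.419 at 2 h and 0.55 ± 0.419 at 6 h. Mef2c, an activity-regulated transcription factor of forebrain neurons, went the other way, at -3.00 ± 0.693 at 2 h and -2.34 ± 0.693 at 6 h. Creb1, which encodes CREB, was at 0.73 ± 0.487 and 0.95 ± 0.487 on its brightest probe set, while another of its 3 tested probe sets gave -0.33 and -0.21. Srf, a partner in the calcium response, was at 0.72 ± 0.347 at 2 h and 0.03 ± 0.347 at 6 h.

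Voltage-gated calcium channels, the entry route of the calcium, were mixed. Of 13 subunits on the array 6 were lower and 7 higher at 2 h, with a median of 0.03 (-0.12 over the 11 tested), and 10 were lower at 6 h, with a median of -0.02. Limma called 0 of 11 tested, with 1 lower at an unadjusted p under 0.05 at 2 h and 0 at 6 h. The auxiliary beta subunits Cacnb1 (-1.17 ± 0.467), Cacnb2 (-1.05 ± 0.531) and Cacnb4 (-0.98 ± 0.509) had the lowest values at 2 h, and the T-type channel Cacna1h was at 0.87 ± 0.435. A second tested probe set of Cacnb1 gave 0.55.

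**Figure D3:**
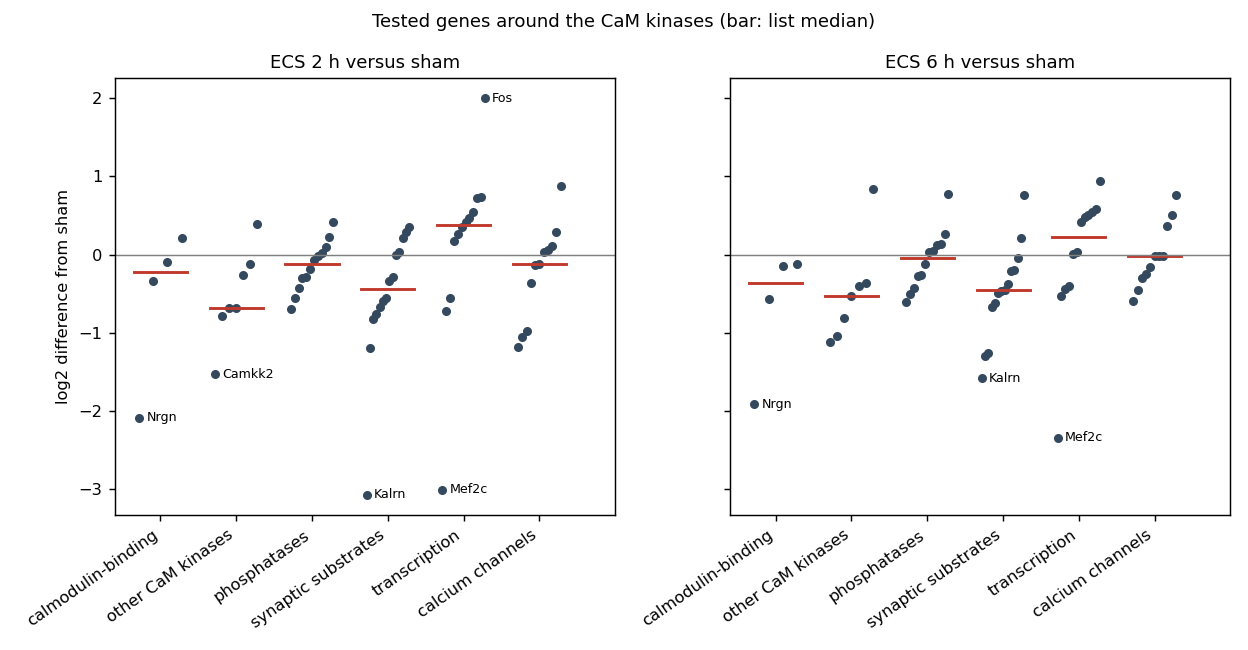
Log2 difference from sham (y axis) of each tested gene in 6 lists around the CaM kinases (x axis) at 2 h (left) and 6 h (right), 1 point per gene, ordered by value within a list, with the median of the tested genes as a bar. Kalrn, Mef2c and Nrgn lie lowest at both times, and Fos lies highest at 2 h.

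The gene patterns most like that of Camk2a were sought among 7327 other genes by the root mean square difference between the 6 log2 signals, each gene centred on its own mean. The closest were Arpp21 (0.513), a cyclic AMP-regulated phosphoprotein, Tbr1 (0.525), a transcription factor of cortical glutamatergic neurons, Ptk2b (0.527), a calcium-activated tyrosine kinase, C1ql3 (0.555), a secreted synaptic protein, and Kalrn (0.560). Since the 2 h values chose Camk2a, likeness to it also ranks genes by that difference. The other CaM kinases were far down, with Camk2b at 1.22 and place 2149, Camk2g at 1.25 and place 2631, Camk2d at 1.39 and place 5064, and Camk4 at 1.67 and place 7086.

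Markers of excitatory neurons of cortex and hippocampus, cells that lie outside the PVN, were mostly lower than in sham at both times, as Camk2a was. Of 18 listed markers 11 were on the array, all 11 lower at 2 h with a median of -1.01, and 9 lower at 6 h with a median of -0.88. Over the 8 tested the medians were -1.55 and -1.38. Of these, Cux2 and Itpka reached their array's median only in the sham arrays, so the filter favoured genes that are high in sham. Among those not tested, Neurod6 was at -1.51 and -0.86, Neurod2 at -0.99 and 0.00, and Bcl11b at -0.13 and 0.27. The summed signal of the 11 was 1575 to 2062 in sham, 228 to 314 at 2 h and 394 to 885 at 6 h. In sham most of this sum came from 1 probe set of Kalrn, at log2 signals of 10.58 and 10.01. The other tested Kalrn probe set gave 0.37 at 2 h and -0.12 at 6 h. Of the 11 markers 0 were listed at exactly 0 in any array. The list shares 3 genes with other lists, Kalrn and Nrgn among them, and 7 of its markers, Slc17a7 and Emx1 among them, were not analysed here. Tbr1, a marker of the cortex, had deposited signals of 88.7 and 92.1 in sham, 4.6 and 3.2 at 2 h, and 5.8 and 58.7 at 6 h, so that 6 h replicate 2 again lay nearest to sham. Within replicate 1 the median of the 8 tested markers was -1.70 at 2 h and -2.06 at 6 h, and within replicate 2 it was -1.53 and -0.78. Between 6 h and 2 h their median was -0.23 within replicate 1 and 0.65 within replicate 2. Camk2a was higher in both, at 1.47 and 2.01. The part of these markers in the Camk2a result was not tested.

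Markers of neurons of any kind were lower than in sham in 15 of 15 genes at 2 h, with a median of -0.33. At 6 h they were lower in 14 of 15, with a median of -0.21. Single genes ran from -1.46 (Syt1) to -0.04 (Elavl3) at 2 h. Camk2a was chosen for its large difference at 2 h, so a smaller list median beside it is no result. The summed signal of the 15 genes was 23098 to 23133 in sham, 17778 to 18326 at 2 h and 19363 to 21500 at 6 h. With median subtraction in place of quantile normalization the 6 h median was -0.0044. GABAergic neuron markers had a median of -0.39 at 2 h and -0.31 at 6 h, with 9 and 8 of 12 lower. Of the 9 tested, 4 were at least 2-fold lower without overlap at 2 h and 3 at 6 h, beside 1.9% and 1.96% of all tested probe sets. Npy, counted at both times, reached its array's median only in the sham arrays, and Vip only there and in 6 h replicate 2. The filter thus favoured genes that are high in sham, and these counts are given as a description. Pvalb was at -2.43 and -2.71, Npy at -1.98 and -1.40, and Vip at -1.63 and -1.04. Gad1 was at -1.27 and -1.15, Gad2 at -0.20 and -0.24, Slc32a1 at -0.38 and -0.07, and Dlx1 at -0.12 and -0.38. The 2 tested markers that were higher, both shared with another list, were Sst, at 0.75 and 0.59, and Calb2, at 0.35 and 0.36. Hypothalamic and PVN neuron markers had medians of 0.16 and 0.25, with 7 and 9 of 12 higher. Oligodendrocyte markers were lower in 6 of 9 at 2 h, with a median of -0.34, and in 9 of 9 at 6 h, with a median of -0.64. Medians of the other lists were -0.14 and 0.00 for thalamic neurons (0.23 and 0.40 over the 4 tested), -0.10 and -0.05 for astrocytes, -0.07 and -0.03 for microglia and macrophages, 0.37 and 0.24 for endothelial and mural cells (0.56 and 0.07 over the 7 tested), and -0.03 and 0.44 for the 3 ependymal markers on the array (0.62 and 0.44 for the 1 tested). Of the tested genes of these lists limma called 0 at either time. Their part in the results was not tested.

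**Figure D4:**
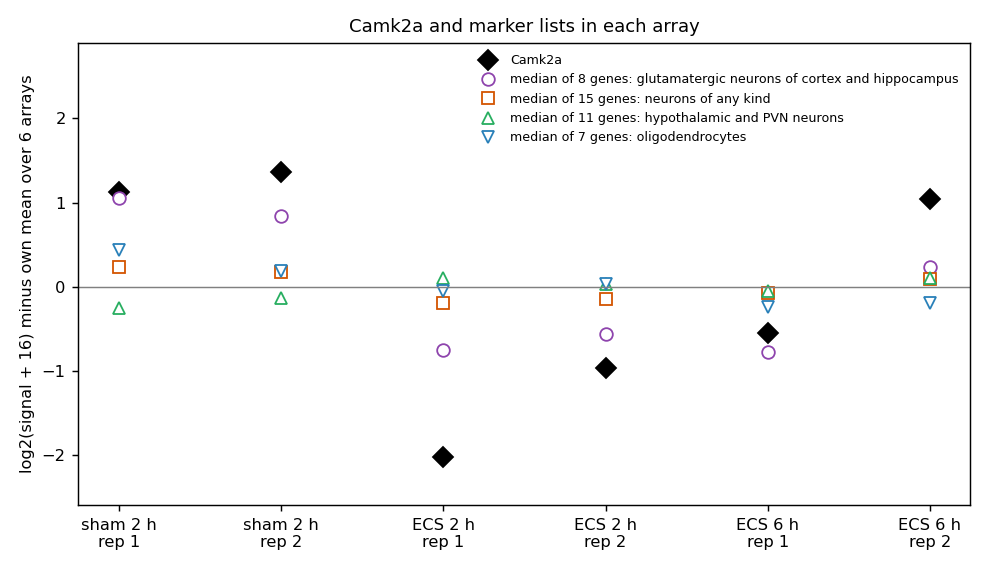
Log2(signal + 16) of Camk2a minus its own mean over 6 arrays (diamond) and the median of the same quantity over the tested genes of 4 marker lists (y axis), for each array (x axis). Camk2a and the markers of cortical and hippocampal glutamatergic neurons are high in both sham arrays and in 6 h replicate 2, and low in both 2 h arrays and in 6 h replicate 1.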

How the data were processed

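The deposited table holds intensity values on a linear scale, made by the authors with MAS5 per the submitters' processing notes. Which version and target they used was not given in the sources used here. Per the labels' protocols, 2 ng of total RNA from 7 µm sections was amplified before labelling. The table has 22690 probe sets and 0 columns of other samples. The 64 controls were dropped, the other 22626 were quantile-normalised, 16 was added and log2 taken, which shrinks changes of dim probe sets. Tested were 12662 (56%) at or above their array's median in at least 2 of 6 arrays. Gene symbols came from GEO's platform annotation, with 20380 probe sets carrying 1 symbol, 691 several and 1555 none, and 20351 matched RefSeq by Entrez identifier.

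Comparisons used limma 3.58.1 in R 4.3.3 with 1 mean per group, moderated variances with a trend (prior df 7.64, residual df 3) and two-sided Benjamini-Hochberg adjustment over all tested probe sets at 0.05. P-values measure the spread between pools. The procedure was tested on simulated data. Replicate 1 deviations from the group mean correlated by 0.23, 0.18 and 0.15 between groups, and replicates are separate runs, so a fit with the run as a block was an alternative. Further alternatives were the offset, scaling, filter, trend and leaving out each array.

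A list gene is represented by its brightest probe set. Named genes are all members, up to 4 genes per list by smallest p at either time, 7 regulators of the kinases, and the 5 genes most like Camk2a. The members and lists were chosen with earlier results of these data known.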

Additional observations from a re-analysis of the deposited data

Results flagged for a closer look

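Gap43, the growth-cone calmodulin-binding protein, went opposite ways at the 2 times after quantile normalization. Both 2 h arrays then lay above both sham arrays and both 6 h arrays lay below them. In the values as deposited both seizure groups overlapped with sham. These were 1042.5 and 1553.7 in sham, 1141.5 and 1891.4 at 2 h, and 1423.4 and 1241.5 at 6 h. Its log2 signals were 10.39 and 10.41 in sham, 10.44 and 10.78 at 2 h, and 10.33 and 10.22 at 6 h. The log2 difference between 6 h and 2 h was -0.33 ± 0.197 (SE), which did not pass (limma adjusted p = 0.9989). Gap43 was flagged by the order of its arrays, so the sign of this difference was fixed by the choice.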

How the results depend on the processing

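The log2 difference of Camk2a kept its sign in all 14 alternatives of each comparison, from -3.26 to -2.14 at 2 h, from -1.81 to -0.20 at 6 h and from 0.94 to 2.50 between 6 h and 2 h. An offset of 64 gave -2.14 at 2 h. The 2 h difference is the value that chose the family, so its kept sign on the same arrays is no independent support. Of 378 member values under alternatives 373 kept their side of the threshold or moved by less than the replicate SD. In the 2 comparisons with 6 h, a tested value that passed in neither fit counted as kept, whatever its size or sign. That count therefore does not show that sizes or signs were stable. Camk2b at 6 h, for example, kept its sign in 10 of 14 alternatives. Among list medians 585 of 717 moved by less than the replicate SD. The number of called probe sets at 2 h was 1 with median subtraction or with the values as deposited and 4 with the replicate block, which called 0 in the comparisons at 6 h. Leaving out 1 array gave 0 to 10 calls at 2 h, 0 to 6 at 6 h and 0 to 3 between 6 h and 2 h. Without 6 h replicate 1 or without 6 h replicate 2 there were 10 at 2 h. Probe sets with a 2-fold difference and no overlap numbered 441, 414 and 383 for 2 h against sham, 6 h against sham and 6 h against 2 h. An offset of 1 gave 874, 910 and 833, an offset of 64 gave 91, 62 and 41, and the 75th percentile filter gave 151, 131 and 123. Leaving out 1 array gave 413 to 948, 396 to 1579 and 359 to 1455. The cause of these shifts was not tested, except that a stricter filter leaves fewer probe sets and 1 array in a group overlaps less easily. Median subtraction put the median of all tested probe sets at 0.10 for 6 h against sham, and the deposited values put it at 0.16 for 6 h against 2 h. Relative to these medians Camk2a stood at -0.98 and 1.70. With 2 arrays a group, small differences of the other members cannot be resolved.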
